A study of Mus musculus with 2 samples.

Results

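Levels of 9 genes that encode transcriptional regulators of the trophoblast or X-linked homeobox proteins were followed through the cell populations of mouse embryos at E7, and between embryos with and without epiblast Yap1. The set held Elf5, Tfap2c, Esrrb, Ets2, Gata3, Nr0b1, Rhox5, Rhox6 and Rhox9, which were taken by symbol from the 32285 genes listed, and each symbol had 1 row. All 9 are protein-coding, and none of them was used to sort cells into populations. Cells of 4 control embryos and of 3 Yap1 cKO embryos were pooled by genotype, and each pool was run in 1 droplet library that counts the 3′ ends of transcripts with unique molecular identifiers (UMIs). The Yap1 cKO embryos carried floxed Yap1 on both alleles and the Cre recombinase under the Sox2 promoter (Sox2-Cre:Yap1flox/flox). The control embryos were labelled WT, while the study's single-cell methods give them as Sox2-Cre:Yap1flox/+ and its mouse methods give Cre-negative floxed littermates as controls, so whether they carried Cre is not settled here. Zygotic Sox2-Cre is known to act in the epiblast and its descendants, not in the extraembryonic ectoderm or most of the visceral endoderm. The fathers, however, carried both Sox2-Cre and floxed Yap1. By the study's own account, Yap1flox/flox embryos, control or Yap1 cKO, probably have the paternal allele deleted in extraembryonic tissue as well. That account does not name Sox2-Cre:Yap1flox/+ embryos, so whether it covers the control pool is not settled here. Extraembryonic cells of the Yap1 cKO pool are thus probably not a Yap1 wild type. The part of this in the ratios given for extraembryonic cells was not tested. With a single library per genotype no test between genotypes was possible, so the intervals given are exact 95% intervals of counting error only and leave the variation among embryos and libraries unmeasured.

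The extraembryonic ectoderm is the trophoblast tissue that caps the epiblast and holds the stem cells of the later placenta. Elf5 is an ETS factor that keeps the trophoblast fate and is silenced by DNA methylation in the embryo proper. Tfap2c and Gata3 (an AP-2 and a GATA factor) promote trophoblast genes, Ets2 is an ETS factor needed for trophoblast stem cell upkeep, and Esrrb is an orphan nuclear receptor active in pluripotent and trophoblast stem cells. Nr0b1 (Dax1) is an X-linked nuclear receptor known from embryonic stem cells and from steroid-producing tissue. The Rhox genes are homeobox genes in a cluster on the X chromosome that are known from the placenta and the gonads, and Rhox5 (Pem) is its founding member.

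In GRCm38 coordinates, Elf5 (2:103411688-103450989, plus strand), Tfap2c (2:172549593-172558622, plus strand) and Gata3 (2:9857078-9890034, minus strand) lie on chromosome 2, Esrrb (12:86361117-86521628, plus strand) on chromosome 12 and Ets2 (16:95702075-95721051, plus strand) on chromosome 16. Nr0b1 (X:86191764-86195947, plus strand), Rhox5 (X:37804842-37808876, plus strand), Rhox6 (X:37826910-37829857, plus strand) and Rhox9 (X:37899097-37901770, minus strand) are X-linked. RefSeq held promoters for 6 of the 9 genes (8 promoters, GRCm38.p6), each from 250 bases before to 50 bases after a transcription start, and none was listed for Tfap2c, Rhox6 or Rhox9. The bases before the start are shown for Elf5, which was close to 0 outside the extraembryonic ectoderm, and for the X-linked Rhox5 and Nr0b1, whose counting intervals for the ratio between libraries did not overlap between Y-bearing and Xist-bearing cells. Capitals mark CpG dinucleotides, the sites of DNA methylation. The sequences span chr2:103411848-103412097 and chr2:103423818-103424067 (Elf5), chrX:37754358-37754607 (Rhox5, at a start upstream of the gene model given above) and chrX:86191525-86191774 (Nr0b1), all on the plus strand.
Elf5, upstream start: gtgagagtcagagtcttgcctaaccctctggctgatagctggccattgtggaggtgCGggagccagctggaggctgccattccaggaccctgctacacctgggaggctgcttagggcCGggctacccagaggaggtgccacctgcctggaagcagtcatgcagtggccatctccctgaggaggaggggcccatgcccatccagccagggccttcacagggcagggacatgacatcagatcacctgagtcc
Elf5, downstream start: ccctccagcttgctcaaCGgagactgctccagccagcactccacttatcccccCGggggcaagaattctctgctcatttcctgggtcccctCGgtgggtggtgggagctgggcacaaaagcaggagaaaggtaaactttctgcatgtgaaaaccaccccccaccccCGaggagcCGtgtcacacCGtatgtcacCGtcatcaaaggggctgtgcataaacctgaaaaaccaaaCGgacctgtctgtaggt
Rhox5: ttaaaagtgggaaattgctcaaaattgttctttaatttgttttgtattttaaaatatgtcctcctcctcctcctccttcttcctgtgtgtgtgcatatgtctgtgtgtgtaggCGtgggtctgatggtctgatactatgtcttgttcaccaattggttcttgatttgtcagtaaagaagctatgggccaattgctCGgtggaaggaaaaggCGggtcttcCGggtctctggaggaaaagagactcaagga
Nr0b1: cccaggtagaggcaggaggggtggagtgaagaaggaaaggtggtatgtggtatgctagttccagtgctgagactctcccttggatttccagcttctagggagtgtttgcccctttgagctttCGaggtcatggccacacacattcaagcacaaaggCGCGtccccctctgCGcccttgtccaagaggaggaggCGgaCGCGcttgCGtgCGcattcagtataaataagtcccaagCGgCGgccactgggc
Over the full 300 bases, the upstream Elf5 promoter held 3 CpGs, the downstream promoter 10, that of Rhox5 5 and that of Nr0b1 14, beside a median of 7 over 32851 promoters. The promoters of Esrrb held 7 each, that of Gata3 22 and that of Ets2 30. The letters GGAATG, which TEAD factors can bind and which were searched on both strands, had 1 match in the upstream Elf5 promoter and in no other of the 8, while 14.7% of all promoters held them. The AP-2 motif GCCNNNGGC, also searched on both strands, had 1 match in the Nr0b1 promoter and 3 in the Gata3 promoter, while 16.6% of all promoters held it. These windows carry no measurement of methylation or binding here.

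After filters that kept barcodes with at least 5000 detected genes, 790 cells remained in control (median 75696 UMIs) and 860 in Yap1 cKO (median 80559 UMIs). The libraries shared 2 barcodes, of which 0 were kept in both. The labels give the sex as female, but cells with at least 2 Y-linked UMIs and no Xist UMI (Y-bearing) made up 51.6% of the control and 15.6% of the Yap1 cKO cells, and cells with at least 2 Xist UMIs and no Y-linked UMI (Xist-bearing) 42.2% and 77.6%. The pools thus differed in sex makeup, which cannot be told apart from genotype in the pooled ratios, so the main ratios are also given within each of these classes. Populations were set by summed levels of marker genes, with thresholds chosen after the data were seen, and the epiblast was divided into cells with low and high Fgf8, a signal of the posterior epiblast and streak. Yap1 itself stood at 29.6 counts per 1000000 UMIs (CPM) in control and at 1.17 CPM in Yap1 cKO epiblast cells, a ratio of 0.0397 (0.0273–0.0560). In the extraembryonic ectoderm it stood at 24.8 and 18.6 CPM (ratio 0.749, 0.635–0.882), in the visceral endoderm at 31.2 and 28.0 CPM (0.898, 0.754–1.07) and in the anterior visceral endoderm at 38.1 and 13.2 CPM (0.346, 0.192–0.607). The extraembryonic ectoderm held 176 cells in control (median 84681 UMIs) and 99 in Yap1 cKO (median 106082 UMIs). Its 8 check markers, which were not used in the gate, summed to 815 and 727 CPM there and all had UMIs, while the 7 visceral endoderm markers summed to 18.1 and 26.6 CPM. The check markers were not restricted to it: they summed to 341 and 315 CPM in the primitive streak, 312 and 336 in the nascent mesoderm and 225 and 257 in the lateral mesoderm, mostly through Eomes (326 and 292, 300 and 320, and 150 and 202 CPM), and to 71.9 and 93.0 CPM in the epiblast. The 5 epiblast check markers summed to 622 and 619 CPM in the extraembryonic ectoderm, against 1050 and 945 in the epiblast. Of these, Pou5f1, the epiblast pluripotency factor, stood at 0.119 and 0.971 CPM against 88.1 and 83.3, Slc7a3 at 0.475 and 0.405 against 136 and 110 and Pim2 at 7.90 and 8.26 against 175 and 179. Utf1 (493 and 492 against 548 and 480 CPM) and Sox2 (120 and 117 against 103 and 92.7 CPM) had like levels in both populations.

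All 9 genes had their highest level in the extraembryonic ectoderm in both libraries. UMIs of 3′ libraries are not scaled by length, so levels are compared for the same gene across cells and not between genes. Outside it the genes fell into separate patterns by level, which are compared with RNA carried over from that tissue further below. Elf5, Esrrb, Nr0b1 and Rhox9 were close to 0 elsewhere, Rhox5 and Rhox6 were also present in the visceral endoderm, Tfap2c extended to the primitive streak and the mesoderm, Gata3 to the lateral mesoderm, the blood progenitors and the anterior visceral endoderm, and Ets2 to every population.

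**Figure D1:**
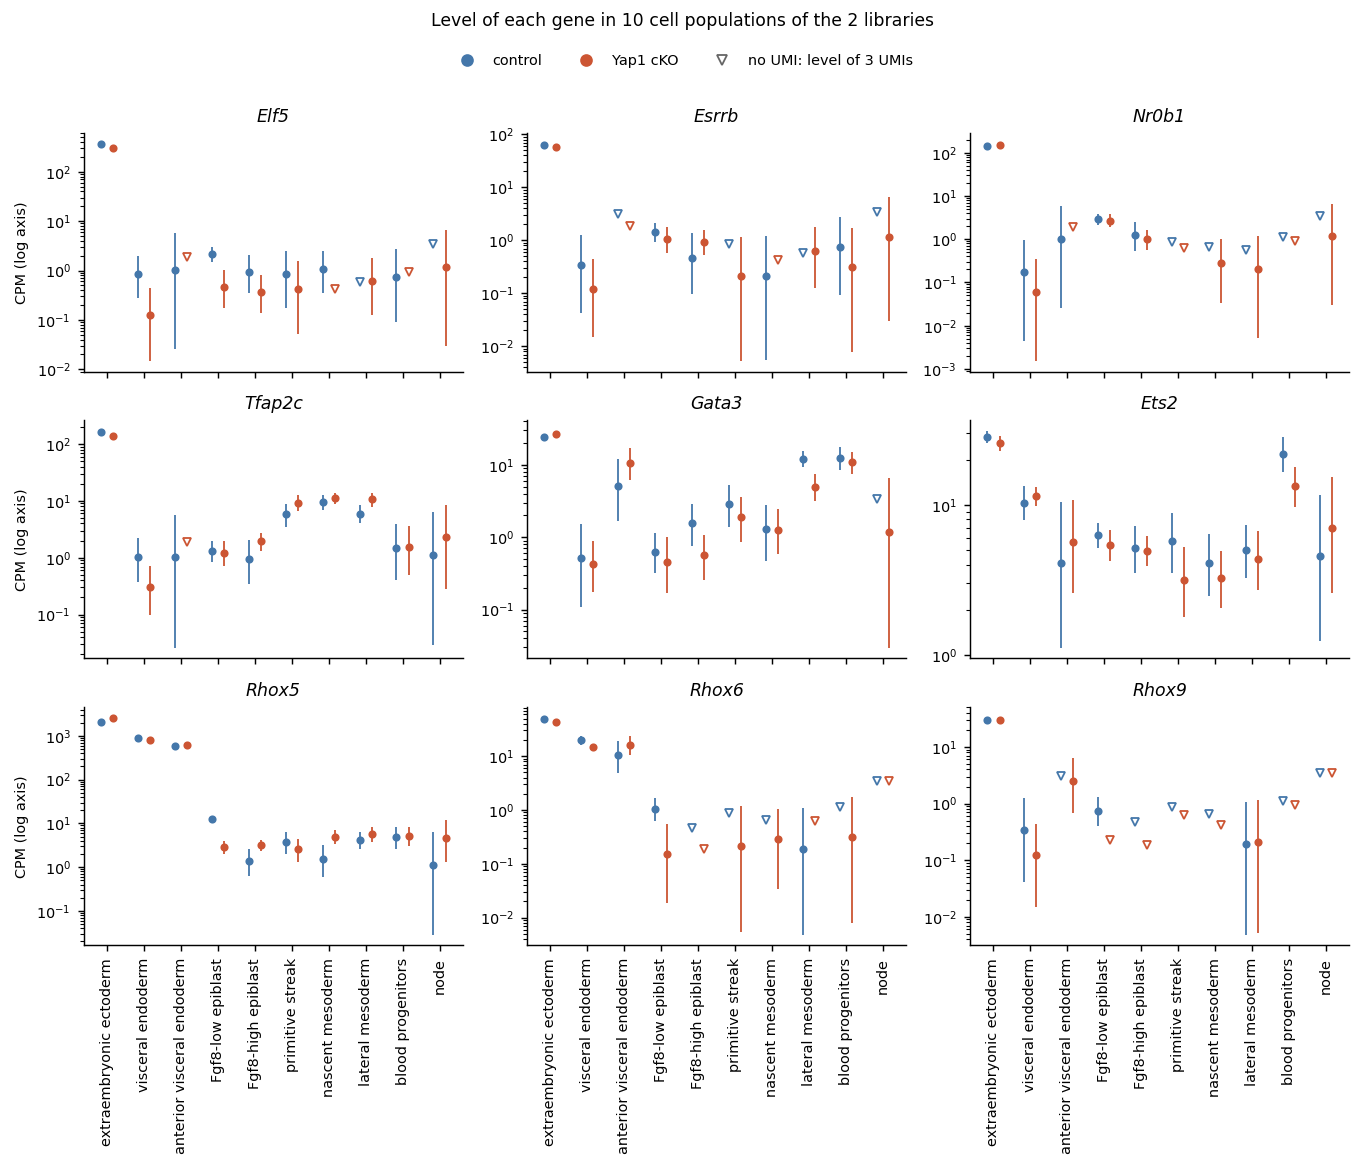
CPM (log axis) of each gene in 10 cell populations of the control (blue) and Yap1 cKO (red) libraries, with exact Poisson 95% intervals. Triangles stand at the level of 3 UMIs where a library had none. Every gene is highest in the extraembryonic ectoderm, Rhox5 and Rhox6 have a second plateau in the visceral endoderm, and Ets2 spans the narrowest range.

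In the extraembryonic ectoderm 0 of the 9 genes differed between the libraries by 1.5-fold or more, where 2.33% of the 9797 genes with at least 100 UMIs did (228 genes). Among Y-bearing cells alone (106 and 20 cells), 2 of the 9 genes passed this fold (Rhox6 and Rhox9), where 7.66% of 8276 genes did, and among Xist-bearing cells 0 of the 9, where 2.98% of 8145 genes did. On the log2 scale the 9 ratios of Yap1 cKO over control had a median of -0.13, beside -0.05 over all of these genes. Elf5 and Tfap2c were the lowest relative to control and Rhox5 the highest.

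In the extraembryonic ectoderm Elf5 reached 6015 (control) and 3658 (Yap1 cKO) UMIs, or 357 (349–367) and 296 (287–306) CPM. The ratio was 0.828 (0.795–0.863). It was detected in all but 1 cell of each library, and after thinning every cell to 38000 UMIs in 98.8% of 170 and 98.9% of 94 cells. The median cell held 370 CPM in control and 300 in Yap1 cKO, with the central 80% of cells from 226 to 534 and from 198 to 440 CPM. Elf5 exceeded the highest Yap1 cKO cell (622 CPM) in 8 control cells, 4 of them Y-bearing and 4 Xist-bearing. The lower Elf5 level was thus present across the population, and it was found in Y-bearing cells (ratio 0.889, 0.823–0.960) and in Xist-bearing cells (0.833, 0.782–0.887).

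Tfap2c stood at 165 (159–171) and 136 (130–143) CPM, a ratio of 0.826 (0.777–0.878). It was detected in 176 of 176 and 98 of 99 cells. The ratio was 0.775 (0.688–0.871) in Y-bearing cells, where Tfap2c stood at 172 and 134 CPM. In Xist-bearing cells, where it stood at 148 and 140 CPM, the ratio was 0.947 (0.861–1.04), and this interval included 1. In cells picked out after the values were seen, the control library held 5 above the highest Yap1 cKO cell (382 CPM), all Y-bearing. Together these 5 cells had 590 CPM of Tfap2c but 105 CPM of Elf5, against 153 and 365 CPM in the other control cells. Their Ascl2, a factor of the ectoplacental cone, was at 443 CPM against 30.7, Hand1, which drives giant cell formation, at 411 against 65.2 and Plac1 at 271 against 0.611, and they had no Esrrb UMI. The 5 cells included 2 with Prl3d1 that are described below, which had 0 and 12.1 CPM of Elf5. These 2 held 44 and 74 of the 134 Plac1 UMIs of the control extraembryonic ectoderm, and 38 and 81 UMIs of Hand1. The rest of the 5 had 131, 141 and 180 CPM of Elf5. All 5 cells thus had less Elf5 than the summed level of the other control cells, but the Plac1 and Hand1 values came largely from 2 of them. Without the 5 cells, a choice made on the gene's own level and therefore no independent value, the Tfap2c ratio was 0.890 (0.836–0.947). The Y-bearing ratio of 0.775 includes these 5 control cells and was not computed without them.

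Esrrb stood at 62.3 (58.6–66.2) CPM in control and 57.2 (53.0–61.5) in Yap1 cKO (ratio 0.917, 0.832–1.01). Y-bearing cells gave 0.711 (0.579–0.866) and Xist-bearing cells 1.02 (0.877–1.19). Nr0b1 stood at 144 (138–149) and 154 (147–161) CPM, a ratio of 1.07 (1.01–1.14). It was lower in Yap1 cKO among Y-bearing cells, at 133 and 94.9 CPM (0.713, 0.619–0.818), and close to equal among Xist-bearing cells, at 165 and 168 CPM (1.02, 0.932–1.12). Gata3 stood at 24.4 and 26.6 CPM (1.09, 0.940–1.26) and Ets2 at 28.5 and 25.7 CPM (0.901, 0.780–1.04). For Gata3 and Ets2 the intervals of the Y-bearing and Xist-bearing ratios also included 1.

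Rhox5 had 35863 control and 31694 Yap1 cKO UMIs, or 2131 (2109–2154) and 2566 (2538–2594) CPM. The ratio was 1.20 (1.19–1.22). Every control cell and 98 of 99 Yap1 cKO cells had a UMI. The median cell was at 2171 CPM in control and 2588 in Yap1 cKO, and the Yap1 cKO cells were spread more widely, with the central 80% from 1531 to 3944 CPM against 1374 to 2839. In Yap1 cKO, 15 of the 99 cells exceeded the highest control cell (3466 CPM), and all 15 were Xist-bearing. These 15 cells were picked by their Rhox5 level after the values were seen. They also had more Nr0b1 than the other Yap1 cKO cells (244 against 140 CPM) and less Ascl2 (19.5 against 43.2 CPM). Elf5 (350 against 288 CPM), Cdx2 (152 against 114) and Rhox6 (57.3 against 41.3) were higher in them as well, and Plac1 (0.609 against 7.28) was lower. Among Xist-bearing cells the Rhox5 ratio was 1.37 (1.34–1.40), at 2082 and 2853 CPM, and among Y-bearing cells it was below 1, at 2164 and 1919 CPM (0.887, 0.860–0.915). The difference of the pools in Rhox5 therefore had opposite directions in the Xist-bearing and Y-bearing cells, and the difference between these ratios was not tested.

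**Figure D2:**
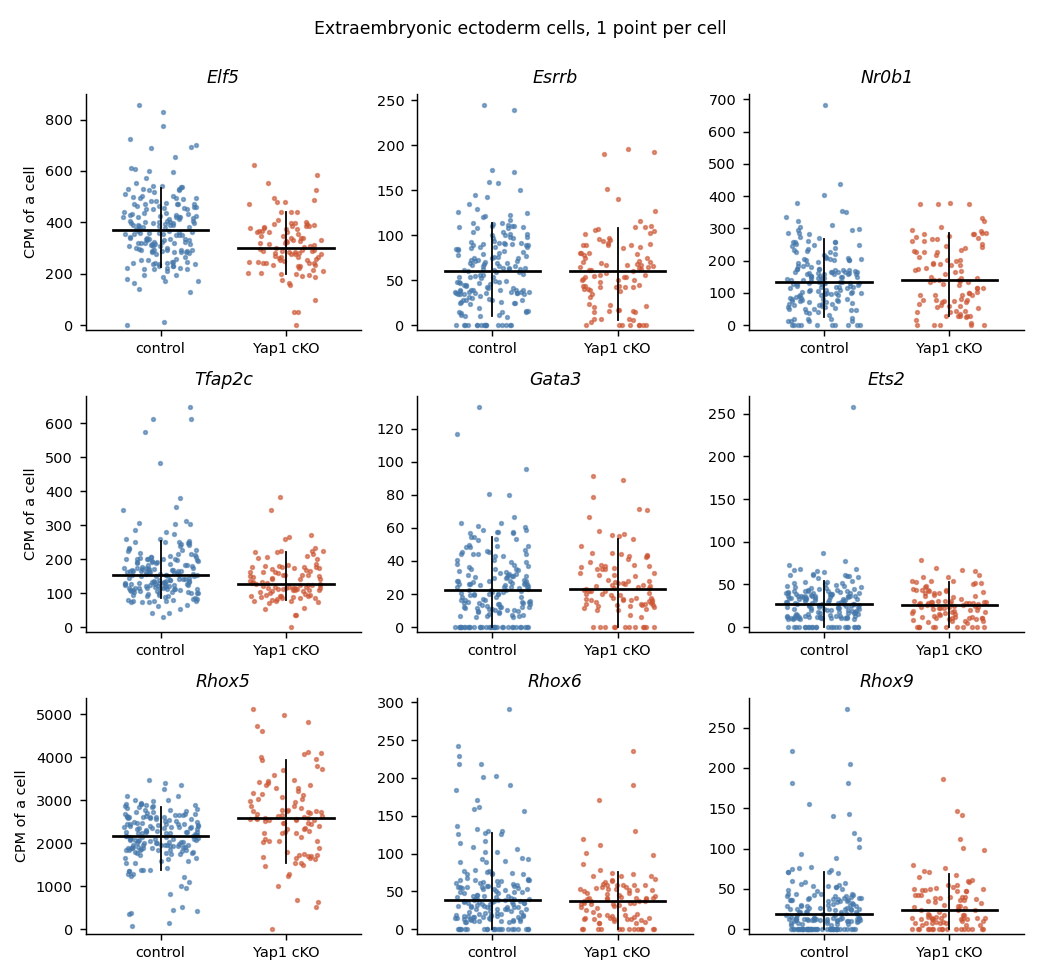
CPM of each extraembryonic ectoderm cell (176 control, blue, and 99 Yap1 cKO, red). Horizontal bars are medians and vertical bars span the 10th to the 90th percentile. The Elf5 medians are 370 and 300 CPM, and 15 Yap1 cKO cells lie above the highest control cell for Rhox5.

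Rhox6 stood at 48.2 (44.9–51.6) and 43.4 (39.8–47.2) CPM (ratio 0.900, 0.806–1.01) and Rhox9 at 29.6 (27.1–32.3) and 29.5 (26.5–32.7) CPM (0.996, 0.867–1.14). Among Y-bearing cells both were lower in Yap1 cKO, Rhox6 at 31.5 against 47.3 CPM (0.666, 0.519–0.846) and Rhox9 at 12.8 against 31.2 CPM (0.408, 0.275–0.588). Among Xist-bearing cells the ratios were 0.930 (0.788–1.10) for Rhox6 and 1.31 (1.05–1.63) for Rhox9. All 4 X-linked genes thus had lower levels in Yap1 cKO than in control among Y-bearing cells. So did the autosomal Esrrb (0.711), Tfap2c (0.775) and Elf5 (0.889), while Ets2 and Gata3 were each at 1.02. The Tfap2c value includes the 5 control cells with the most Tfap2c, all of them Y-bearing.

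The same contrast can be read within a library. In the Yap1 cKO extraembryonic ectoderm, Xist-bearing cells (69) had 1.49 (1.44–1.53) times the Rhox5 level of Y-bearing cells (20), 1.78 (1.55–2.05) times the Nr0b1 level, 1.48 (1.16–1.91) times the Rhox6 level and 2.66 (1.84–3.96) times the Rhox9 level. In control (50 Xist-bearing and 106 Y-bearing cells) the same ratios were 0.962 (0.939–0.985) for Rhox5, 1.24 (1.13–1.36) for Nr0b1, 1.06 (0.904–1.24) for Rhox6 and 0.831 (0.668–1.03) for Rhox9. Over the X-linked genes with at least 100 UMIs the median ratio was 1.04 in Yap1 cKO (245 genes, central 80% from 0.817 to 1.56) and 0.985 in control (291 genes, 0.729 to 1.24). The Yap1 cKO values of Nr0b1 and Rhox9 lay above this central range. The autosomal Esrrb also had more in the Xist-bearing cells of the Yap1 cKO library (1.26, 1.03–1.56), and Elf5 did not (0.949, 0.876–1.03). The 20 Y-bearing Yap1 cKO cells cannot be assigned to embryos, so sex and embryo cannot be told apart.

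**Figure D3:**
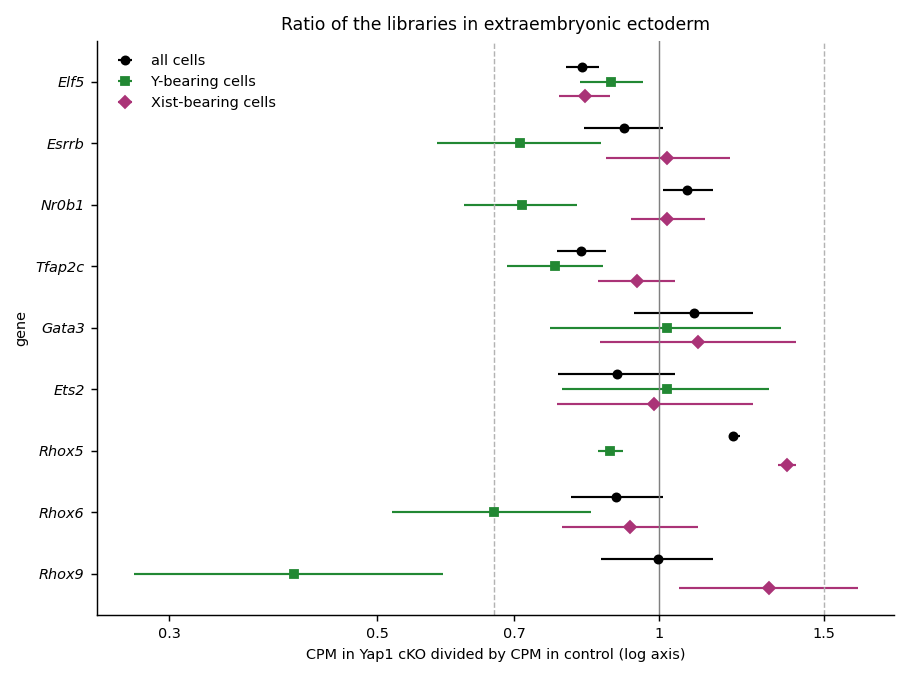
Ratio of the Yap1 cKO to the control CPM (log axis) in the extraembryonic ectoderm for all cells, Y-bearing cells and Xist-bearing cells, with exact 95% intervals for counting error. Dashed lines mark 1.5-fold. Elf5 is below 1 in all 3 sets of cells, while Rhox5 and Rhox9 are above 1 in Xist-bearing and below 1 in Y-bearing cells.

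The extraembryonic ectoderm runs from stem-like cells near the epiblast, which express Cdx2, Eomes and Bmp4, to cells near the ectoplacental cone with Ascl2, Hand1 and Plac1. An index was formed as the mean log2(CPM + 1) of the former minus that of the latter, and cells were split at its pooled median (4.08). The higher, stem-like part held 56.8% (49.2–64.2, Clopper-Pearson) of control and 38.4% (28.8–48.7) of Yap1 cKO cells. These intervals take the cells of a pool as independent. The index was formed from unthinned cells, with median depths of 84681 UMIs in control and 106082 in Yap1 cKO. The shares are not divided into Y-bearing and Xist-bearing cells, and the part of depth and sex makeup in them was not tested. Esrrb was 1.66 (1.45–1.89) times as high in the higher as in the lower part in control and 1.52 (1.31–1.77) times in Yap1 cKO, and Nr0b1 1.46 (1.34–1.59) and 1.42 (1.30–1.56) times. Elf5 and Rhox5 had smaller gradients in the same direction, from 1.13 to 1.17 times. For Tfap2c the higher part had 0.816 (0.757–0.879) times the level of the lower in control and 1.13 (1.02–1.25) times in Yap1 cKO. The control value rested on the 5 control cells with the most Tfap2c, all in the lower part, and without them it was 0.948 (0.876–1.03), an interval that included 1.

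Between the libraries, Elf5 was lower in Yap1 cKO in the higher part (0.863, 0.809–0.920) and in the lower part (0.850, 0.803–0.899). Rhox5 was higher in both, at 1.26 (1.23–1.28) and 1.23 (1.20–1.25), and Nr0b1 was 1.15 (1.05–1.25) and 1.18 (1.08–1.29). These ratios pool Y-bearing and Xist-bearing cells. Over the whole extraembryonic ectoderm, Rhox5 and Nr0b1 were at 0.887 and 0.713 among Y-bearing cells and at 1.37 and 1.02 among Xist-bearing cells. Tfap2c was near equal in the higher part (0.988, 0.896–1.09) and lower in Yap1 cKO in the lower part, at 183 and 131 CPM (0.714, 0.659–0.773), or at 158 and 131 CPM (0.830, 0.763–0.902) without the 5 control cells. In that lower part Ascl2 (0.656, 0.581–0.739), Plac1 (0.538, 0.402–0.717) and Cdx2 (0.765, 0.696–0.840) were lower as well, and Hand1 was at 0.912 (0.827–1.01). These 4 genes are parts of the index itself, and their part in the result was not tested.

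**Figure D4:**
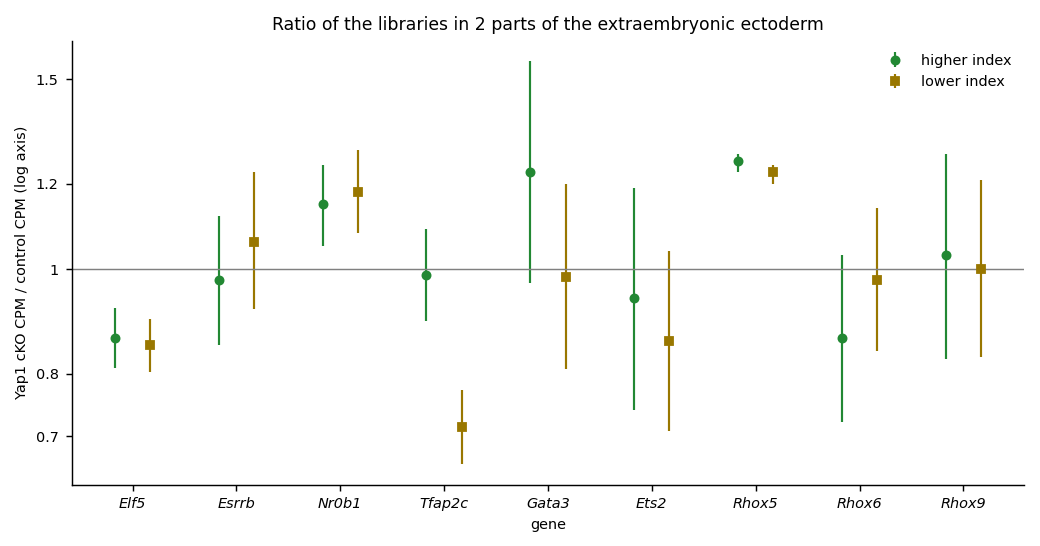
Ratio of the Yap1 cKO to the control CPM (log axis) for each gene in extraembryonic ectoderm cells with a higher (stem-like) or lower (cone-like) index, with exact 95% intervals for counting error. Tfap2c is at 0.988 in the higher and 0.714 in the lower part, while Elf5 and Rhox5 have close values in both.

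At the far end of this range, 2 control cells had no Cdx2 and 0 or 1 Elf5 UMI, with 879 and 1172 UMIs of Prl3d1, the placental lactogen of trophoblast giant cells. Both were among the 5 control cells with the most Tfap2c. They had 38 and 40 UMIs of Tfap2c, 26 and 37 of Rhox5, 16 and 5 of Ets2 and 5 and 11 of Gata3, but none of Esrrb, Nr0b1, Rhox6 or Rhox9. These 2 cells thus had Tfap2c, Ets2 and Gata3 and lacked most of the others. Both Yap1 cKO cells with 0 or 1 Elf5 UMI had no Prl3d1. Prl3d1 reached 2058 UMIs in control against 0 in Yap1 cKO, but it was seen in 4 of 176 control cells and in 2 of them with 10 or more UMIs. With nearly all UMIs in 2 cells, counting error over UMIs gives no limit for a fold between the libraries.

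Across cells within the extraembryonic ectoderm, Spearman's rho, given as a description over cells of different depth from 1 library, was 0.45 over 176 control cells and 0.53 over 99 Yap1 cKO cells for Nr0b1 with Rhox5, and 0.27 and 0.54 for Esrrb with Nr0b1. Elf5 with Rhox5 gave 0.34 and 0.29, and Rhox5 with Rhox6, neighbours in the cluster, gave 0.10 and 0.06.

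Other trophoblast genes were taken as a list of 32, of which 28 had at least 100 UMIs in the extraembryonic ectoderm and 6 had served in its gate. Of these, 1 was higher in Yap1 cKO by 1.5-fold or more and 1 lower, beside the 2.33% of all genes. The lower one was Prl3d1, with nearly all of its UMIs in 2 control cells. The median log2 ratio of the list was -0.11. The highest ratios belonged to Msx2 (1.60, 1.28–2.0), a homeobox gene downstream of BMP signals, Furin (1.30, 1.03–1.64), the protease that cleaves pro-Nodal, and Hand1 (1.14, 1.05–1.24). The lowest belonged to Prl3d1, to Gata2 (0.681, 0.469–0.977), a GATA factor of trophoblast, and to Cdx2 (0.774, 0.726–0.826), the homeobox factor of trophoblast stem cells. Of genes added after the values were seen, Tead4, the TEAD partner of YAP1 in the early trophoblast, was at 0.815 (0.739–0.898) and Eomes at 0.941 (0.889–0.995). Sox2, shared by pluripotent and trophoblast stem cells, was at 0.978 (0.913–1.05). Of these stem cell regulators, Elf5, Tfap2c and Cdx2 had pooled ratios from 0.774 to 0.828, while Eomes, Sox2 and Esrrb were closer to 1. Of these regulators only Elf5, Tfap2c and Esrrb were divided into Y-bearing and Xist-bearing cells, and among them this grouping was not found. Among Y-bearing cells Esrrb (0.711) and Tfap2c (0.775) were below Elf5 (0.889), but the Tfap2c value includes the 5 control cells with the most Tfap2c. Among Xist-bearing cells Tfap2c (0.947) was nearer to Esrrb (1.02) than to Elf5 (0.833). Cdx2, Eomes and Sox2 were not divided into these classes.

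The Rhox cluster contributed 34 listed genes, of which 13 had at least 20 UMIs in the extraembryonic ectoderm and 11 had none. Besides Rhox5, Rhox6 and Rhox9, Rhox1 stood at 22.5 and 23.3 CPM (1.04, 0.885–1.21), and Rhox7b at 1.78 and 1.70 CPM. Copies of the Rhox2 and Rhox4 groups are nearly identical in sequence, so the reads of a copy are uncertain. Among them, Rhox4e stood at 10.6 and 12.5 CPM (1.18, 0.944–1.47), Rhox4g at 13.1 and 10.5 (0.805, 0.643–1.0) and Rhox4d at 3.15 and 3.64 (1.16, 0.760–1.75). Rhox4c reached 37 and 71 UMIs (2.61, 1.73–4.0), while Rhox2a (0.724), Rhox4a (0.778), Rhox4a2 (0.681) and Rhox4f (0.645) had intervals that included 1. The ratios of the cluster lay on both sides of 1.

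In the visceral endoderm (74 control and 200 Yap1 cKO cells) only Rhox5, Rhox6 and Ets2 had at least 100 UMIs. Of these 3 genes, 0 differed by 1.5-fold, where 4.62% of 9483 genes did. Rhox5 stood at 879 (855–904) and 790 (776–803) CPM, a ratio of 0.898 (0.869–0.928), and every cell had a UMI. Its median cell was at 846 and 794 CPM, with the central 80% of cells from 518 to 1148 and from 480 to 1067 CPM. Rhox6 stood at 19.6 (16.2–23.6) and 14.8 (13.0–16.8) CPM, a ratio of 0.753 (0.600–0.95). After thinning to 38000 UMIs per cell, it was detected in 44.1% (32.1–56.7) of 68 control and 35.8% (28.7–43.4) of 176 Yap1 cKO cells, and before thinning in 54.1% and 53.5%. In nascent mesoderm cells, which have a similar depth (medians of 75455 and 79637 UMIs against 80012 and 74677), the thinned share was 0% of 58 and 0% of 77 cells, which allows shares of up to 5.17% and 3.90%. These visceral endoderm levels amounted to 41.3% (40.1–42.5) and 30.8% (30.1–31.4) of the extraembryonic ectoderm level for Rhox5, and to 40.7% (33.2–49.6) and 34.1% (29.2–39.8) for Rhox6. Rhox9 (2 and 2 UMIs) and Rhox1 (1 and 0 UMIs) were nearly absent from the same cells, and Elf5 had 5 UMIs, all in a single cell, and 2 UMIs. Of the 34 Rhox genes, Rhox5 and Rhox6 were the only ones with more than 10 UMIs in the visceral endoderm of either library.

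Among Xist-bearing visceral endoderm cells (46 and 171) the Rhox5 ratio was 0.848 (0.817–0.882), and among Y-bearing cells (23 and 12) it was 0.975 (0.887–1.07). The Rhox5 difference in the visceral endoderm was thus the reverse of that in the extraembryonic ectoderm for Xist-bearing cells. In the anterior visceral endoderm (18 and 21 cells), which patterns the anterior epiblast, Rhox5 stood at 579 and 617 CPM (1.06, 0.959–1.18) and Rhox6 at 10.3 and 16.3 CPM (1.59, 0.740–3.68). The 7 visceral endoderm markers summed to 4509 and 5961 CPM in this gate, against 15093 and 14488 in the visceral endoderm, and its Yap1 ratio was 0.346. Embryonic endoderm had no gate of its own, and whether this gate also holds such cells was not tested. Ets2 stood at 10.3 and 11.5 CPM in the visceral endoderm (1.11, 0.826–1.51).

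Whether a low level outside the extraembryonic ectoderm exceeds RNA carried over from it was read against 6 other genes of that tissue with at least 100 UMIs in it (Ascl2, Bmp8b, Gjb5, Plet1, Wnt6 and Zfp42), as the CPM outside divided by the CPM inside in the same library. In the epiblast these genes reached 0.586% to 3.50% of their extraembryonic ectoderm level in control and 0.0870% to 5.17% in Yap1 cKO. Ets2 alone of the 9 genes lay above the highest of them in both libraries, at 20.9% (17.2–25.3) and 20% (16.4–24.4). In the nascent mesoderm Tfap2c, Ets2 and Gata3 did so, in the primitive streak and the lateral mesoderm Ets2 and Gata3, and in the visceral endoderm Ets2, Rhox5 and Rhox6. These are point values, and Gata3 rested on 6 and 9 UMIs in the nascent mesoderm and 10 and 9 in the primitive streak. A single primitive streak cell of each library held 5 of these UMIs. In the control nascent mesoderm Gata3 was at 5.34% (1.95–11.7) and Tfap2c at 5.77% (4.19–7.77). Both intervals overlapped that of Plet1 there (3.41%, 1.55–6.50). The reference genes were not shown to be absent outside, so a gene below the highest of them is not thereby shown to be absent either.

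**Figure D5:**
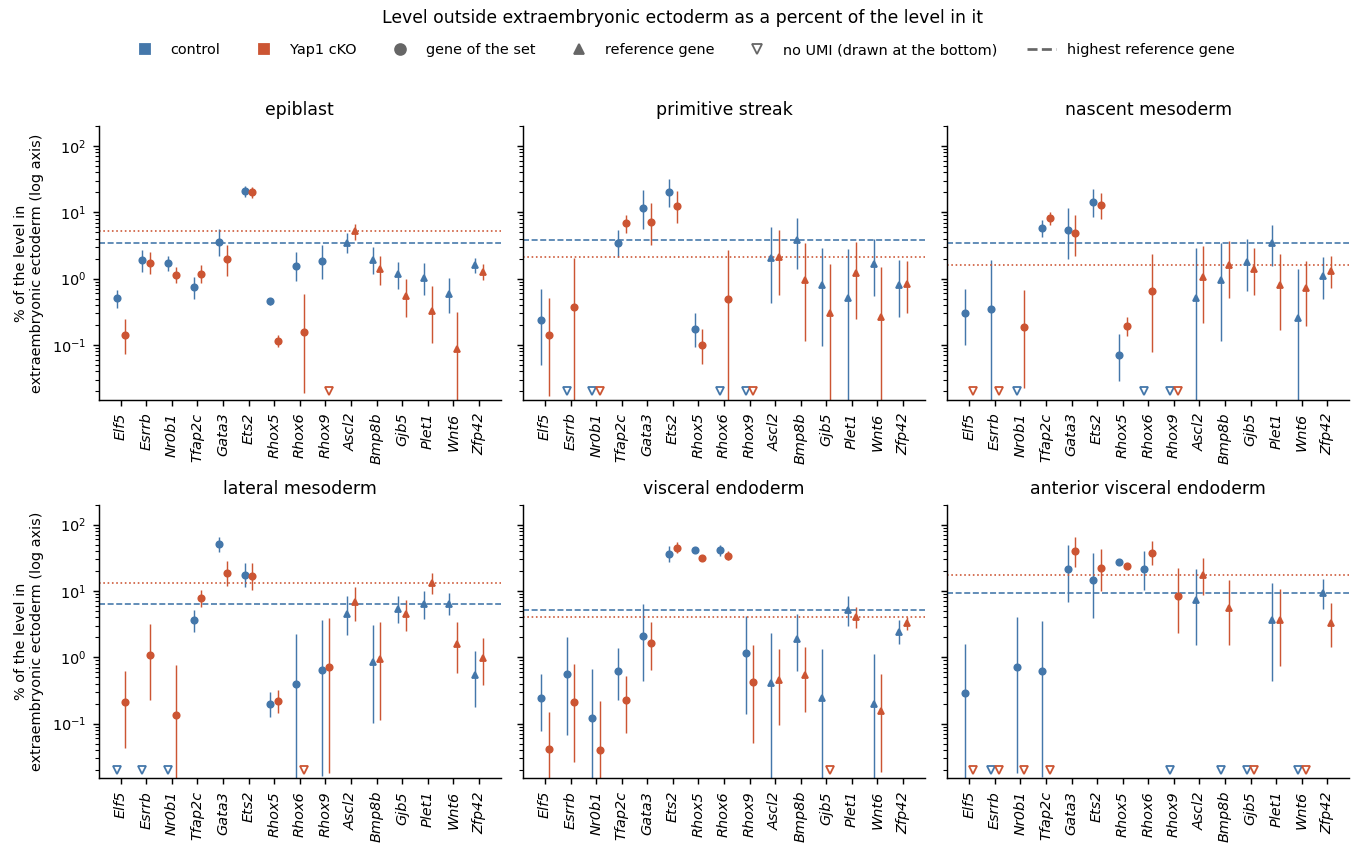
CPM of each gene outside the extraembryonic ectoderm as a percent of its CPM in it (log axis), for the 9 genes (circles) and 6 reference genes of that tissue (triangles) in control (blue) and Yap1 cKO (red), with 95% intervals. Dashed and dotted lines mark the highest reference gene of each library, and open triangles stand for no UMI. Ets2 lies above the line of its own library in every population shown, and Rhox5 and Rhox6 do so in both parts of the visceral endoderm.

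Tfap2c, which also has a known role in the first germ cells, extended to the primitive streak and its descendants. It stood at 5.76 and 9.32 CPM in the primitive streak (ratio 1.62, 0.934–2.90), at 9.54 and 11.1 in the nascent mesoderm (1.16, 0.792–1.72) and at 5.93 and 10.6 in the lateral mesoderm (1.78, 1.12–2.88). Neighbours in this order had overlapping intervals within each library. Of these populations, only in the nascent mesoderm did Tfap2c exceed the highest reference gene used above in both libraries. In the primitive streak it stood at 3.48% and 6.83% of its extraembryonic ectoderm level, against 3.79% and 2.11% for the highest reference gene. In the lateral mesoderm it stood at 3.59% and 7.75%, against 6.45% and 13.0%. Within the cell classes the lateral mesoderm ratio was 1.39 (0.478–3.61) for Y-bearing and 1.76 (0.889–3.80) for Xist-bearing cells, and both intervals included 1. The nascent mesoderm gave 1.72 (0.399–5.79) and 0.765 (0.497–1.20). In the epiblast Tfap2c stood at 1.22 and 1.62 CPM (1.33, 0.822–2.20). Its ratio there was 5.69 (1.81–23.6) from 4 and 15 UMIs of Y-bearing cells, while Xist-bearing cells gave 0.891 (0.488–1.67). The thinned share of cells with a UMI was 2.07% (0.763–4.45) and 6.36% (3.81–9.87). Over all embryonic cells its level was 3.17 CPM in control and 4.58 in Yap1 cKO (1.44, 1.16–1.80). This sum pools populations with unlike levels and unlike cell numbers, such as the nascent mesoderm with 58 control and 78 Yap1 cKO cells. The part of cell composition in it was not tested, and it was not divided into Y-bearing and Xist-bearing cells. After thinning, the share of lateral mesoderm cells with a UMI was 17.1% (9.18–28.0) in control and 15.5% (7.35–27.4) in Yap1 cKO, against 20.8% and 30.6% before, so the higher level was not matched by a higher thinned share. In the visceral endoderm the thinned shares were 4.41% and 1.14%. The signal lay partly in a few strong cells, since 2 of 72 control and 4 of 62 Yap1 cKO lateral mesoderm cells had 5 or more UMIs. In these cells Prdm1, a regulator of germ cell fate, was at 123 CPM in control and 65.3 in Yap1 cKO, against 3.95 and 5.04 in the others. Ifitm3 (Fragilis), a surface marker of early germ cells, was at 321 and 177 CPM against 33.6 and 18.9, and Prdm14, another germ cell regulator, at 18.5 and 11.5 against 1.38 and 0.658. The germ cell genes Nanos3 and Dppa3 were at 12.3 and 18.5 CPM in the 2 control cells (2 and 3 UMIs), against 0.790 and 1.58 in the others, and had 0 and 1 UMI in the 4 Yap1 cKO cells and none in the others. With 5 or more Tfap2c UMIs, the nascent mesoderm held 1 control and 3 Yap1 cKO cells, and the primitive streak 0 and 2. The control nascent mesoderm cell had 0 UMIs of Prdm1 and 2 of Ifitm3 (25.0 CPM against 18.3 in the others). Prdm14 and Nanos3 had 1 UMI each in it (12.5 CPM each, against 0.883 and 0.662), and Dppa3 had 0. In the 3 Yap1 cKO nascent mesoderm cells, Prdm1 was at 65.3 CPM against 4.79 in the others and Ifitm3 at 196 against 24.3. Prdm14 had 8 UMIs in these 3 cells against 2 in the 75 others, Dppa3 3 against 4 and Nanos3 0 against 8. In the 2 Yap1 cKO primitive streak cells, Prdm1 was at 106 CPM against 10.6 and Ifitm3 at 414 against 22.2. Prdm14, Dppa3 and Nanos3 had 4, 7 and 1 UMIs there, against 1, 2 and 3 in the 49 others. These cells were picked by their Tfap2c count after the values were seen, and their small number does not allow a comparison between the libraries.

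Gata3 was lower in Yap1 cKO in the lateral mesoderm, which here includes extraembryonic mesoderm, at 12.2 (9.43–15.6) and 4.98 (3.19–7.41) CPM (ratio 0.407, 0.243–0.659). It had 64 UMIs in 28 of 72 control cells and 24 UMIs in 18 of 62 Yap1 cKO cells, and the thinned shares were 30.0% (19.6–42.1) and 22.4% (12.5–35.3). Y-bearing cells gave 0.372 (0.114–0.941) and Xist-bearing cells 0.608 (0.286–1.32). The 6 extraembryonic ectoderm gate markers summed to 54.3 and 34.2 CPM in the same cells, with UMIs of 4 of the 6 in each library, while Elf5 had 0 and 3 UMIs. Their part in the result was not tested. Blood progenitors had Gata3 at 12.4 and 10.9 CPM (0.875, 0.528–1.45), and the anterior visceral endoderm had it at 5.14 and 10.7 CPM (2.07, 0.734–7.19).

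Ets2 was present in every population, from 3.18 to 28.5 CPM. After the extraembryonic ectoderm, it was highest in blood progenitors, at 21.9 (16.6–28.3) CPM in control and 13.4 (9.69–18.0) in Yap1 cKO, a ratio of 0.612 (0.403–0.924). The thinned shares there were 42.9% (24.5–62.8) of 28 cells and 27.3% (13.3–45.5) of 33 cells. A single cell held 11 of the 58 control UMIs there, and another 7 of the 43 Yap1 cKO UMIs. The blood progenitor ratio was not divided into Y-bearing and Xist-bearing cells. In the epiblast Ets2 stood at 5.96 and 5.14 CPM (0.863, 0.681–1.09), with 20.3% and 21.2% of thinned cells positive.

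The epiblast held 296 control and 294 Yap1 cKO cells, of which 217 and 137 were Fgf8-low and 79 and 157 Fgf8-high. The part of this composition in the pooled epiblast ratios was not tested. In the epiblast 8 of the 9 genes had at least 20 UMIs over both libraries. Of these 8, 4 were lower in Yap1 cKO by 1.5-fold or more and 0 were higher. Among the 15280 genes counted 10.8% passed this fold in either direction and 7.14% in the lower direction. The 4 genes were Elf5 (1.81 and 0.414 CPM, ratio 0.229, 0.110–0.443), Rhox5 (9.74 and 3.0 CPM, 0.308, 0.238–0.396), Rhox6 (0.756 and 0.0691 CPM, 0.0914, 0.0103–0.382) and Gata3 (0.882 and 0.518 CPM, 0.587, 0.282–1.20). For Rhox9 there were 13 UMIs in control against 0 in Yap1 cKO. Within Y-bearing cells Elf5 gave 1.21 (0.241–5.64, 5 and 4 UMIs) and Gata3 3.54 (0.808–21.2, 3 and 7 UMIs), with intervals that included 1. Within Xist-bearing cells they gave 0.336 (0.121–0.875, 13 and 8 UMIs) and 0.291 (0.107–0.732), the opposite direction. In Y-bearing and Xist-bearing cells, Rhox5 gave 0.230 (0.132–0.379) and 0.644 (0.411–1.01), and Rhox6 0.152 (0.00350–1.07) and 0.273 (0.00463–5.25).

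For Elf5, Rhox5 and Rhox6 much of the control signal sat in few cells. Of the 43 control Elf5 UMIs, 23 were in a single cell, and of the 232 Rhox5 UMIs, 162 were in the 7 control epiblast cells without a UMI of Pou5f1. The same 7 cells held 16 of the 18 Rhox6 and 11 of the 13 Rhox9 UMIs. In Yap1 cKO, 6 epiblast cells had no Pou5f1 UMI, and they held 4 of 87 Rhox5 UMIs. Without cells lacking Pou5f1, an alternative added after the values were seen, the Rhox5 ratio was 0.977 and the Elf5 ratio 0.453, and Rhox6 had too few UMIs to be counted. The 21 Gata3 UMIs of control lay in 13 cells with at most 4 each, and 3 of these UMIs were in cells without Pou5f1, and its ratio was 0.595 without those cells. The shares of cells with a UMI had intervals that overlapped between the libraries. Elf5 was at 2.41% (0.976–4.91) of 290 thinned control cells and 1.41% (0.386–3.58) of 283 thinned Yap1 cKO cells, from 7 and 4 cells. Rhox5 was at 8.62% (5.66–12.5) and 11% (7.57–15.2), and Rhox6 at 1.03% (0.214–2.99) and 0.353% (0.00895–1.95). Unthinned, these were 4.39% and 3.74% for Elf5 and 15.5% and 19.4% for Rhox5.

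Nr0b1 and Esrrb had low but more evenly spread levels in the epiblast. Nr0b1 stood at 2.48 and 1.76 CPM (0.711, 0.479–1.05), with 59 UMIs in 41 control cells and 51 in 35 Yap1 cKO cells, and no control cell had more than 4. In the Fgf8-low part of the epiblast it stood at 2.93 (2.18–3.85) and 2.70 (1.88–3.75) CPM and in the Fgf8-high part at 1.25 (0.538–2.45) and 1.0 (0.572–1.63), with intervals that overlapped in control and not in Yap1 cKO. Its ratio was 0.920 (0.581–1.44) in the Fgf8-low part and 0.803 (0.324–2.17) in the Fgf8-high part. Its epiblast level was 1.73% and 1.14% of that in the extraembryonic ectoderm, within the range of the reference genes. In the primitive streak it had 0 UMIs in both libraries, which allows up to 0.864 and 0.635 CPM. The thinned share was 8.96% (5.48–13.6) of 212 control and 7.58% (3.69–13.5) of 132 Yap1 cKO cells in the Fgf8-low part, and 0% of 43 and 0% of 51 in the primitive streak, where median depths were 71619 and 76651 UMIs against 71987 and 80259. Its UMIs per Elf5 UMI were 0.401 (0.383–0.421) in the control extraembryonic ectoderm and 1.37 (0.911–2.08) in the control epiblast, and 0.520 (0.492–0.550) and 4.25 (2.24–8.76) in Yap1 cKO. Esrrb likewise had 0.174 (0.163–0.186) and 0.651 (0.390–1.07) UMIs per Elf5 UMI in control and 0.193 (0.178–0.209) and 2.42 (1.20–5.20) in Yap1 cKO. The Nr0b1 and Esrrb signal of the epiblast was thus not in the proportion to Elf5 that the extraembryonic ectoderm had. That of Rhox5 was closer to it, at 5.96 and 5.40 (3.88–7.66) in control and 8.66 and 7.25 (3.95–14.6) in Yap1 cKO. Tfap2c gave 0.462 and 0.674 (0.406–1.11) in control and 0.461 and 3.92 (2.05–8.11) in Yap1 cKO. Elf5 itself stood in the epiblast at 0.505% and 0.140% of its extraembryonic ectoderm level, in control below every reference gene. A higher proportion to Elf5 therefore does not set a gene apart from the reference genes. Esrrb stood at 1.18 and 1.0 CPM in the epiblast (0.852, 0.489–1.49).

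Rhox5 was detected at low levels in all embryonic populations, from 1.13 to 12.8 CPM. Its ratio was 0.222 (0.153–0.316) in the Fgf8-low epiblast, 2.23 (1.09–5.16) in the Fgf8-high epiblast and 3.27 (1.43–8.74) in the nascent mesoderm. Single cells carried much of this: 73 of the 223 control UMIs in the Fgf8-low epiblast, 18 of the 50 Yap1 cKO UMIs in the Fgf8-high epiblast and 17 of the 35 Yap1 cKO UMIs in the nascent mesoderm. Within the cell classes the nascent mesoderm ratio was 0.829 (0.265–3.04) for Xist-bearing cells, from 5 and 11 UMIs. Y-bearing cells had 2 and 0 UMIs, so neither class had a ratio above 1. The other Yap1 cKO UMIs there lay in cells of neither class. The Fgf8-low and Fgf8-high parts were not divided into these classes. In the nascent mesoderm the thinned shares were 1.72% (0.0436–9.24) and 7.79% (2.91–16.2). As a share of the extraembryonic ectoderm level these were 0.0712% and 0.194%, below every reference gene used above.

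The genes whose levels went most closely with each member were ranked by Pearson's r of log2(CPM + 1) over 20 points (10 populations in 2 libraries) among 12786 genes. These points share libraries and gates, so r is a description, and Duox2 was a gate marker. Elf5 went with Rhox1 (0.984), B830017H08Rik (0.984) and Gm9 (0.983), Esrrb with Elf5 (0.979), Nr0b1 (0.978) and Duox2 (0.976), and Nr0b1 with Esrrb (0.978), Elf5 (0.968) and Cldn4 (0.968). Rhox5 went with Rhox6 (0.989), Mageb16 (0.988) and Triml2 (0.983), Rhox6 with Rhox5, Mageb16 (0.984) and Triml2 (0.976), and Rhox9 with Rusc2 (0.981), Fthl17a (0.974) and Rhox1 (0.962). Tfap2c went with Gmnn (0.920) and Castor1 (0.901), Gata3 with Anxa2 (0.944), Myl12a (0.909) and Nenf (0.897), and Ets2 with Prkab1 (0.910), Myo1c (0.899) and Mknk1 (0.892). By this measure Rhox9 was closer to Elf5 (0.937) than to its neighbours Rhox6 (0.753) and Rhox5 (0.696).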

How the data were processed

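Counts were deposited as gene by barcode matrices of UMIs, which the authors made from 10x 3′ v3.1 libraries with Cell Ranger 7.1.0 against mm10. From these counts, barcodes with at least 5000 detected genes and at most 10% mitochondrial UMIs were kept, and scrublet doublet calls (1 control, 4 Yap1 cKO) were removed, with scanpy 1.11.5. Cells were assigned to populations by summed CPM of marker lists that held none of the 9 genes (60 CPM without the highest marker for the extraembryonic ectoderm, 500 for the visceral endoderm). UMIs were summed per population and library. Exact intervals (SciPy 1.17.1) came from the Poisson distribution for levels, a binomial conditional on the summed UMIs for ratios and the Clopper-Pearson method for shares. Only the ratio intervals were tested on simulated data. The simulated counts were independent Poisson counts, so UMIs clustered in single cells were not covered. A fold of 1.5 was used for counts of genes, and 3 counts as the limit for a count of 0. For shares, 26 control and 48 Yap1 cKO cells under 38000 UMIs were left out. The named genes were the 9 members, Rhox genes with at least 20 UMIs, the 3 highest and 3 lowest of the trophoblast list and the 3 genes most like each member, of which 1 is not reported here. The members and lists were chosen with earlier results of these data known. The alternatives numbered 15, of which 4 were added after seeing the data.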

Additional observations from a re-analysis of the deposited data

Results flagged for a closer look

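Each result here differed in direction between cell populations or cell classes, with counting intervals on opposite sides of 1, and the difference was not tested because each genotype had 1 library. Tfap2c had a Yap1 cKO to control ratio of 1.78 in the lateral mesoderm and 0.826 in the extraembryonic ectoderm, but the lateral mesoderm ratios within Y-bearing (1.39) and Xist-bearing cells (1.76) had intervals that included 1. Rhox5 had ratios of 2.23 in the Fgf8-high epiblast, 3.27 in the nascent mesoderm and 1.20 in the extraembryonic ectoderm, against 0.222 in the Fgf8-low epiblast and 0.898 in the visceral endoderm. Single cells held 36.0% of the Yap1 cKO Rhox5 UMIs in the Fgf8-high epiblast, 48.6% of those in the nascent mesoderm and 32.7% of the control UMIs in the Fgf8-low epiblast. In the nascent mesoderm the Rhox5 ratio was 0.829 (0.265–3.04) within Xist-bearing cells, and Y-bearing cells had 2 and 0 UMIs. Within the extraembryonic ectoderm, the Rhox5 ratio was 1.37 among Xist-bearing and 0.887 among Y-bearing cells, and the Rhox9 ratio was 1.31 and 0.408.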

How the results depend on the processing

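No paired analysis was possible because each genotype had 1 library, and the shared replicate number in the labels gives no second pair. With Y-bearing cells alone, 2 of the 9 genes passed 1.5-fold in the extraembryonic ectoderm (Rhox6 and Rhox9) against 0 under the other alternatives, where 7.66% of all genes counted in these cells did. In the epiblast 1 passed it (Rhox5) of the 3 that still had 20 UMIs, where 16% of all genes counted did, against 3 to 5 under the others, which counted more of the 9. With these cells the extraembryonic ectoderm ratios of Nr0b1 (0.713) and Rhox5 (0.887) also reversed, and the causes were not tested. With all gate thresholds doubled, the Rhox5 ratio in the epiblast reversed to 1.04. Which genes passed the fold in the epiblast differed between alternatives: without cells lacking Pou5f1, these were Elf5, Tfap2c and Gata3. The extraembryonic ectoderm ratio ranged from 0.791 to 0.889 for Elf5, from 0.775 to 0.947 for Tfap2c and from 0.887 to 1.37 for Rhox5. Leaving out cells with at least 50 CPM of Plac1 gave 0.833 for Tfap2c, and leaving out the 5 control cells above the highest Yap1 cKO cell gave 0.890. RNA of low-gene barcodes, taken as free RNA, made up an estimated 1.10% and 0.408% of the extraembryonic ectoderm and 0.580% and 0.211% of the epiblast UMIs. A single library per genotype and uneven sex makeup limit every ratio between genotypes, and counts below about 20 UMIs leave wide intervals.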
